A study of Mus musculus with 4 samples.

Results

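Genetic and dietary obesity were compared in mouse brown adipose tissue, in its stromal vascular fraction (SVF), the cells that are left once the fat-laden adipocytes are removed. The comparison set every quality-passing barcode of the library from 16-week-old db/db mice (16w db/db) against every one of the library from mice on a high-fat diet (HFD). A barcode passed when it held over 250 and under 6000 genes, over 500 and under 30000 unique molecular identifiers (UMIs, each 1 captured RNA molecule), with under 15% of UMIs from mitochondrial genes. This gave 5833 cells of 16w db/db and 5462 of HFD, 11295 of the 28887 cells kept in the 4 libraries of the series. Each cell was then assigned to a lineage by its raw UMIs of 3 genes: C1qa, C1qb and C1qc for macrophages, Col1a1, Col3a1 and Dcn for stromal cells, and Cdh5, Cldn5 and Gpihbp1 for endothelial cells. A cell belonged to a lineage when that sum reached 3 UMIs, at least 2 of the 3 genes were seen and the sum was at least 2 times each of the other sums. Cells that reached 3 UMIs without meeting the last terms were set apart as mixed, and the remaining cells were left ungated.

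The db/db mice carry a mutation of the leptin receptor, and the study names the line as B6.BKS(D)-Leprdb/J, while the labels give the strain of all 4 groups as C57BL6/J. The 16w db/db mice were 16 weeks old. The HFD mice had the wild-type genotype, were labelled 10 weeks old and, by the study's methods, ate the diet for 10 weeks from that age, so their age at collection is not settled by the sources. WT mice aged 10 weeks and db/db mice of 8 weeks (8w db/db) gave the other libraries, whose values are set beside the comparison. The SVF of 3 mice was pooled for each library. No test was possible with 1 library per group, and all intervals below are 95% intervals that cover counting error only, not the spread between mice or preparations. Those of levels, ratios and single shares are exact, and those of differences of shares are approximate, built from the exact intervals of both shares. The study's methods describe male mice throughout.

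Brown adipose tissue burns lipid to make heat, and its SVF holds the macrophages, fibroblast-like stromal cells with adipocyte progenitors, and capillary endothelial cells that surround the adipocytes. In obese fat, macrophages take up lipid from dying adipocytes and switch on a lysosomal and lipid-handling programme marked by Trem2, while perivascular macrophages marked by Lyve1 line the vessels. MHC class II molecules, which macrophages and dendritic cells use to show peptides to helper T cells, depend on the master regulator Ciita. Stromal cells that express Pi16 and Dpp4 are early progenitors of committed preadipocytes.

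The libraries differed in more than their diet and genotype. The filter kept 89.5% of barcodes in 16w db/db and 31.3% in HFD, since 1.04% and 68.5% of barcodes in that order had 15% or more mitochondrial UMIs. Kept cells of 16w db/db had a median of 2733 UMIs and 0.799% mitochondrial UMIs, against 5066 UMIs and 10.5% in HFD. Xist, which is expressed from the inactive X chromosome of females, stood at 207 counts per 1000000 UMIs (CPM) in 16w db/db and had a UMI in 37.7% of its cells, against 0.245 CPM and 0.146% in HFD. Summed Y-linked genes stood at 17.7 CPM and 188 CPM. The 16w db/db library thus went against the stated sex, and genotype, diet, age, sex and library cannot be told apart in any value below. Lepr, the gene that the db mutation lies in, had 1 UMI in 16w db/db and 8 in HFD, too few to check the labels. The libraries shared 32 cell barcodes, 0.491% of those of 16w db/db and 0.183% of those of HFD.

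The cells of 16w db/db were richer in macrophages and poorer in stromal cells than those of HFD. Macrophages made up 33.5% of 16w db/db cells (1952 cells, 32.3% to 34.7%) and 27.9% of HFD cells (1522 cells, 26.7% to 29.1%), a difference of 5.60 percentage points (3.89 to 7.31). Stromal cells made up 20.8% (1216 cells) and 33.4% (1826 cells), a difference of -12.6 points (-14.2 to -10.9). Endothelial cells were close in share, at 23.8% (1390 cells) and 26.0% (1418 cells), with a difference of -2.13 points (-3.74 to -0.52). In WT and 8w db/db the stromal share was far larger, at 75.1% and 64.0%, and endothelial cells were nearly missing, at 0.135% and 0.567%, so endothelial cells were found in number in 16w db/db and HFD alone. Levels in the 8 WT and 66 8w db/db endothelial cells are not given.

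**Figure D1:**
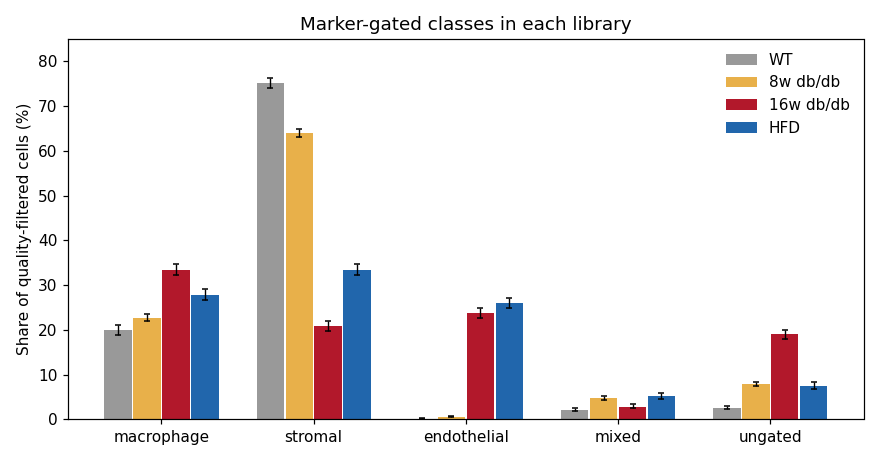
Share of quality-passing cells in each lineage (percent, y axis) for the 4 libraries, with exact binomial 95% intervals. Macrophages stood at 33.5% in 16w db/db and 27.9% in HFD, stromal cells at 20.8% and 33.4%, and endothelial cells were found almost wholly in these 2 libraries.

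The differences depended on which barcodes were let in. Without barcodes of 3 or more brown adipocyte UMIs the macrophage difference was 1.73 points (-0.13 to 3.59), an interval that holds 0. That setting dropped 154 of 1522 macrophages and 671 of 1418 endothelial cells in HFD. In 16w db/db it dropped 7 of 1952 and 0 of 1390. It thus shrank the HFD total that the shares are taken of, and not the macrophage count alone. With no mitochondrial limit the stromal difference shrank to -1.11 points (-2.31 to 0.11), and with a limit of 10% the endothelial difference turned to 4.92 points. As a share of the 3 gated lineages alone, macrophages made up 42.8% and 31.9%, stromal cells 26.7% and 38.3%, and endothelial cells 30.5% and 29.8%. Lineage genes that the gate did not use were present in each class. Macrophages of 16w db/db and HFD held Csf1r, the receptor for colony-stimulating factor 1, at 335 CPM and 481 CPM, and Adgre1 at 230 CPM and 450 CPM. Stromal cells held Pdgfra at 682 CPM and 427 CPM, and endothelial cells held Pecam1 at 788 CPM and 972 CPM. A share is a share of captured barcodes, and cells lost in dissociation or sorting are not in it.

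RNA of other cells was present in every class and was unequal between the libraries. Summed over 6 stromal markers, macrophages held 26.9 CPM in 16w db/db and 361 CPM in HFD, and 0.564% and 38.8% of macrophages had 3 or more stromal UMIs. Summed over 8 brown adipocyte markers, endothelial cells held 22.4 CPM and 757 CPM. In that class 0 of 1390 cells in 16w db/db and 671 of 1418 (47.3%) in HFD had 3 or more brown adipocyte UMIs. Red cell RNA went the other way, with haemoglobin genes making up 11.8% of endothelial UMIs in 16w db/db and 0.00710% in HFD, and with 158 16w db/db endothelial cells at 10% haemoglobin or more. Ratios that turned on these cells are given below with and without them. The part of free RNA in the other ratios was not tested.

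For each lineage the UMIs of all its cells were summed per library and expressed as CPM, and genes with at least 20 CPM in either library were compared. All ratios are of 16w db/db over HFD, on the log2 scale, and a gene is counted as higher where it passed 2-fold. In macrophages 535 of 5937 genes (9.01%) were at least 2-fold higher in 16w db/db and 1188 (20%) in HFD, with a median log2 ratio of -0.22. Centred on that median the numbers were 817 and 855. The 2-fold calls followed transcript length: among the shortest genes, by longest annotated transcript, 18.2% were called higher in 16w db/db and 8.19% in HFD, and among the longest these were 2.33% and 37.0%. The median log2 ratio was 0.35 for the shortest genes, -0.19 for those between and -0.77 for the longest. The lists below are therefore set beside the median of all genes, with the median longest transcript of the lists that leaned furthest.

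MHC class II genes had the lowest median of the macrophage lists. H2-Aa (ENSMUSG00000036594, chr17:34282744-34287823, GRCm38), the alpha chain of the I-A molecule, stood at 3098 CPM in WT, 2189 in 8w db/db, 378 (368 to 388) in 16w db/db and 3671 (3635 to 3706) in HFD. HFD macrophages were thus near the WT level and 16w db/db macrophages were 9.72-fold lower than HFD, with a log2 ratio of -3.28 (-3.32 to -3.24). H2-Eb1, the beta chain of I-E, stood at 193 CPM and 2775 CPM, a 14.4-fold gap, and H2-Ab1, the beta chain of I-A, at 250 CPM and 2915 CPM. The invariant chain Cd74, which guides class II molecules to the endosome, stood at 855 CPM and 7197 CPM. Ciita, the transactivator that the class II promoters depend on, stood at 3.53 CPM in 16w db/db, 86.7 in HFD and 37.7 in WT, with a log2 ratio of -4.62 (-5.06 to -4.21). H2-DMb1, a subunit of the peptide-loading chaperone, stood at 23.0 CPM and 250 CPM, and its partner H2-DMa differed least, at 126 CPM and 262 CPM. All 7 of the 10 listed class II genes that passed the level minimum were over 2-fold higher in HFD, with a median of -3.44 against -0.22 for all genes. The median longest transcript of the list was 1576 bases, within the shortest genes.

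The gap showed in the number of cells as well as in the sum. After each cell was thinned to 1000 UMIs, 25.6% (23.7% to 27.7%) of 16w db/db macrophages and 91.5% (89.9% to 92.8%) of HFD macrophages had 2 or more class II UMIs, a difference of -65.8 points (-68.2 to -63.3). The shares in WT and 8w db/db were 73.0% and 64.9%, and without thinning they were 48.4% in 16w db/db and 99.6% in HFD. The same share in stromal cells was 2.18% and 19.96%. Whether free RNA, doublets or the cells' own expression gave it was not tested. Thinning left out 67 of the 1952 16w db/db macrophages and none of the 1522 of HFD. Within macrophages that carried 2 or more UMIs of the lipid-associated genes Trem2, Gpnmb and Cd9, H2-Aa stood at 326 CPM and 3317 CPM, and within those with 0 such UMIs at 839 CPM and 6968 CPM. The class II gap was therefore present in both sets of cells. Those with 0 such UMIs were shallower, at medians of 2103 UMIs in 16w db/db and 3711 in HFD. Those with 2 or more had medians of 7083 and 6768.5 UMIs. A count of 0 can thus reflect depth and need not mark another kind of macrophage.

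The start regions of 2 of these genes are printed because the class II genes moved together and are known to share a conserved promoter module that ends in an inverted CCAAT box. Each runs from 250 bases before to 50 after the RefSeq gene start (GRCm38.p6), 5′ to 3′ along the gene, H2-Aa at chr17:34287774-34288073 on the minus strand and H2-Eb1 at chr17:34305617-34305916 on the plus strand. Capitals mark the letters GATTGG, searched on both strands, which read CCAATC where the match is on the other strand:
H2-Aa: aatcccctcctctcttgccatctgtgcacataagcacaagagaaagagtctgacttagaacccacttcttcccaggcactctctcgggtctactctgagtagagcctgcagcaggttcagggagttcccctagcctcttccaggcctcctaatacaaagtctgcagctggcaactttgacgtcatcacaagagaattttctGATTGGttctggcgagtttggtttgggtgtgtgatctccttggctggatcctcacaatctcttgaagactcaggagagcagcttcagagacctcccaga
H2-Eb1: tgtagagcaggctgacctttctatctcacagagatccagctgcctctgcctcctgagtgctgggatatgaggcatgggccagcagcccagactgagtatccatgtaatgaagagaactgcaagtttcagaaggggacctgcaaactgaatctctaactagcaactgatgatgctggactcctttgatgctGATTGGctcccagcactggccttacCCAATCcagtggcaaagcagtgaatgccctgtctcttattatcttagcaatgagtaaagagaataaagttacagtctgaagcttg
The H2-Aa window held 1 match, 49 bases before the start, and the H2-Eb1 window held 2, the first 60 bases before the start and the other, on the opposite strand, 35 before it. Of 32851 RefSeq start windows of the same length, 16.11% held at least 1 match and 2.685% held 2 or more, so a single match is common. A match of letters is a description and not a measured binding site. H2-Ab1 and Ciita had no entry in the sequence table.

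The genes that mark lipid-associated macrophages (LAMs) did not separate the models as a group. Summed over the 9 genes the study used, Trem2, Cd9, Cd36, Lipa, Lpl, Fabp4, Fabp5, Ctsb and Ctsl, 16w db/db macrophages held 20439 CPM and HFD macrophages 22102 CPM, a log2 ratio of -0.113 (-0.121 to -0.105), against 6596 CPM in WT and 14543 CPM in 8w db/db. Without Lpl, Cd36 and Fabp4, genes that endothelium expresses as well, the ratio was 0.181, so the direction rested on those genes. Trem2 (ENSMUSG00000023992, chr17:48346401-48354147), a lipid-sensing receptor, stood at 1157 CPM in 16w db/db and 1216 in HFD, with 122 in WT, and a UMI of it was seen in 55.3% and 52.5% of thinned cells, a difference of 2.83 points (-0.57 to 6.24). Lipa, the lysosomal acid lipase, was the 1 of the 9 past 2-fold, at 537 CPM and 1188 CPM. The median of the 9 was -0.07.

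Other genes of the same programme went both ways. Spp1 (ENSMUSG00000029304, chr5:104435118-104441050), the secreted matrix protein osteopontin, stood at 3.93 CPM in WT, 137 in 8w db/db, 1302 (1284 to 1321) in 16w db/db and 92.2 (86.7 to 98.0) in HFD. That is a log2 ratio of 3.82 (3.73 to 3.91), 14.1-fold, and among barcodes of 2000 to 6000 UMIs alone it was 3.01. A UMI of Spp1 was seen in 22.9% of 16w db/db and 5.72% of HFD macrophages after thinning. Ctsk, the collagen-cleaving cathepsin K, stood at 862 CPM and 297 CPM, and Lgals1, the lectin galectin-1, at 4431 CPM and 1768 CPM. On the other side were Itgax, the integrin chain CD11c, at 47.5 CPM and 187 CPM, the elastase Mmp12 at 496 CPM and 1226 CPM, and the lipid carrier Apoe at 3612 CPM and 7317 CPM. Gpnmb, a lysosomal glycoprotein, differed little, at 1409 CPM and 1531 CPM. Of these 14 further genes 3 were higher in 16w db/db, 3 in HFD and 8 in neither, with a median of -0.09.

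Perivascular macrophage genes had the highest median of the macrophage lists. Lyve1 (ENSMUSG00000030787, chr7:110850607-110863239), the hyaluronan receptor that marks these cells, stood at 968 CPM in WT, 578 in 8w db/db, 102 (96.8 to 107) in 16w db/db and 8.28 (6.69 to 10.1) in HFD. The 16w db/db and HFD libraries were thus both below WT, and HFD was the lower, with a log2 ratio of 3.62 (3.32 to 3.94). It was seen in 8.97% and 1.05% of thinned macrophages. Pf4, the platelet factor 4 chemokine, stood at 2957 CPM and 725 CPM, and the C-type lectin Clec10a at 523 CPM and 145 CPM. Cbr2, Fcna and F13a1 had log2 ratios of 2.54, 2.19 and 1.49. Mrc1, the mannose receptor, stood at 336 CPM and 592 CPM, so the list did not move as a block. Of the 17 genes 12 were tested, and 8 were higher in 16w db/db and 0 in HFD, with a median of 1.43 and a median length of 2173 bases, also within the shortest genes. In cells with 0 UMIs of Trem2, Gpnmb and Cd9, 243 in 16w db/db and 128 in HFD, Lyve1 stood at 894 CPM and 9.67 CPM. Ratios of Lyve1, Cbr2, F13a1 and Cd163 moved with the mitochondrial limit: at 10% Lyve1 gave 5.05 and without a limit 2.98.

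Cytokine and chemokine genes were mostly lower in 16w db/db, with the monocyte chemoattractants as the exception. Cxcl2, which draws in neutrophils, stood at 7578 CPM in WT, 506 in 16w db/db and 3841 in HFD, and was seen in 15.4% and 78.1% of thinned macrophages of 16w db/db and HFD. Cxcl1 stood at 87.7 CPM and 631 CPM, Il1b at 40.1 CPM and 192 CPM, and Tnf at 26.4 CPM and 101 CPM. Nfkbiz, a nuclear inhibitor of kappa B protein induced with them, stood at 32.9 CPM and 278 CPM. Ccl2, the ligand of the monocyte receptor Ccr2, stood higher in 16w db/db, at 707 CPM against 92.8 CPM, with 1550 CPM in WT. That ratio of 2.93 was 1.16 among barcodes of 2000 to 6000 UMIs, and -0.15 (-0.44 to 0.13) among cells with 0 UMIs of Trem2, Gpnmb and Cd9. The ratio of Ccl7 dropped from 1.80 to 0.33 in the same depth window, while that of Ccl8 was 1.66 and 2.28. Of the 17 genes tested of 20, 5 were higher in 16w db/db and 11 in HFD, with a median of -1.52 and a median length of 1755 bases.

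Some sterol efflux genes and most alternative activation genes stood higher in HFD. Abca1 and Abcg1, the pumps that move cholesterol out of macrophages, stood at 39.7 CPM and 57.6 CPM in 16w db/db, against 240 CPM and 200 CPM in HFD. Their regulator Nr1h3, the sterol receptor LXR alpha, stood at 15.6 CPM and 52.6 CPM. In all 0 of 12 tested genes of sterol handling were higher in 16w db/db, 4 were higher in HFD and 8 were in neither set, with a median of -0.65. The list's median length of 4299 bases lay at the border of the middle and longest genes, of which 14.9% and 37.0% were higher in HFD. Retnla, the resistin-like protein of alternative activation, stood at 14687 CPM in WT, 249 in 16w db/db and 1167 in HFD. Mgl2 and Ear2 shared that side, at 7.78 CPM and 28.0 CPM against 71.2 CPM and 182 CPM. Arg1, the arginine-cleaving enzyme counted in the same list, stood on the other side at 52.1 CPM and 10.3 CPM. This list of 10 genes had 8 tested, 1 higher in 16w db/db and 5 in HFD, with a median of -1.28.

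Complement and Fc receptor genes leaned the same way without a gene past 2-fold in 16w db/db. C3ar1, the receptor of the C3a fragment, stood at 132 CPM and 478 CPM, and Cd14, the lipopolysaccharide co-receptor, at 163 CPM and 512 CPM. Of the 17 tested, 6 were higher in HFD and 11 were in neither set, with a median of -0.54. Iron and haem genes were balanced, with 2 higher in 16w db/db, 2 in HFD and a median of -0.05 over 11 genes. The haem-degrading enzyme Hmox1 stood at 305 CPM and 120 CPM, and the iron exporter Slc40a1 at 23.9 CPM and 7.93 CPM. Macrophages of 16w db/db held 4276 CPM of red cell markers and those of HFD 19.2 CPM. The part of that RNA in these ratios was not tested, and Hmox1 was at 0.84 among barcodes of 2000 to 6000 UMIs.

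More 16w db/db macrophages carried cell cycle transcripts. After thinning, 28.8% of them (542 cells) and 13.9% of HFD macrophages (211 cells) had 2 or more UMIs of the 18 cell cycle genes, a difference of 14.9 points (12.1 to 17.6). The same share was 2.64% in WT and 7.0% in 8w db/db, and in stromal cells 3.63% and 3.78%. Without thinning the shares were 59.5% and 60.6% at 2 UMIs, but 45.2% and 32.9% at 4 UMIs or more, a difference of 12.4 points (9.09 to 15.6). After thinning, 4 UMIs or more were seen in 15.2% and 6.04%. Birc5, which guides chromosomes in mitosis, stood at 176 CPM and 40.3 CPM, the ribonucleotide reductase subunit Rrm2 at 40.6 CPM and 8.37 CPM, and the kinase Cdk1 at 62.4 CPM and 19.1 CPM. Mki67 and Top2a, the usual proliferation markers, differed less, at 142 CPM and 95.1 CPM against 118 CPM and 70.9 CPM. Of the 18 genes 12 were over 2-fold higher in 16w db/db and 0 in HFD, with a median of 1.40 and a median length of 3357.5 bases, in the middle of the length range.

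**Figure D2:**
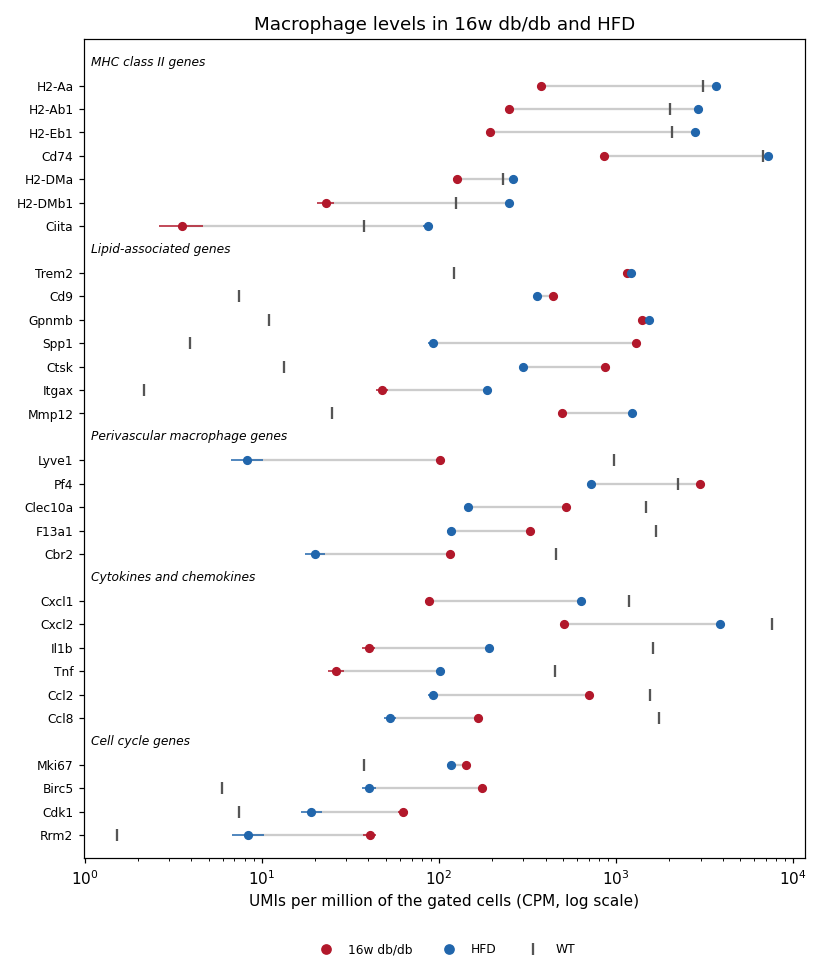
Levels of listed genes in macrophages (CPM, log axis) for 16w db/db and HFD, with exact Poisson 95% bars, and WT as a tick. The class II genes lie to the right in HFD, at or above the WT tick, the Trem2 points of 16w db/db and HFD nearly overlie, and Spp1 stands at 1302 CPM in 16w db/db against 92.2 CPM in HFD.

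By size of ratio alone, with the level at least 50 CPM and at least as high as in the other lineages, 206 genes passed for 16w db/db and 242 for HFD. The 16w db/db side was led by histone genes, among them Hist1h2ap at 1048 CPM against 9.26 CPM, and these share reads with near-identical copies, so their levels are uncertain. Spp1 and Lyve1 were in the same leading group. On the HFD side, beside Ciita and 4 class II genes, stood the inflammasome sensor Nlrp3 at 7.56 CPM and 107 CPM, the histone demethylase Kdm6b at 22.4 CPM and 250 CPM, the receptor gene Fcrls at 3.25 CPM and 61.9 CPM, the signalling protease Malt1 at 23.6 CPM and 234 CPM, and the nuclear RNA Neat1 at 100 CPM and 1044 CPM.

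Of 6662 genes 417 (6.26%) were over 2-fold higher in 16w db/db and 898 (13.5%) in HFD, with a median of -0.08. The genes of early Pi16 and Dpp4 progenitors were lower in 16w db/db, collagen genes were slightly higher, and Igfbp3 gave the widest gap of the listed growth factor genes. Pi16 (ENSMUSG00000024011, chr17:29317680-29330593), a peptidase inhibitor that marks the progenitors, stood at 2126 CPM in WT, 71.3 (63.9 to 79.2) in 16w db/db and 404 (392 to 416) in HFD. Both libraries were thus below WT, and 16w db/db was the lower, with a log2 ratio of -2.50 (-2.66 to -2.34). Dpp4 (ENSMUSG00000035000, chr2:62330073-62412231), the dipeptidase CD26, stood at 524 CPM in WT, 16.3 in 16w db/db and 102 in HFD. Sema3c, a secreted semaphorin, stood at 17.6 CPM and 188 CPM, the complement regulator Cd55 at 32.4 CPM and 170 CPM, and Anxa3 at 37.0 CPM and 176 CPM. The list kept 1 exception: Timp2, an inhibitor of metalloproteases, stood at 1092 CPM and 1247 CPM. In all 10 of the 11 tested genes of 14 were higher in HFD and 0 in 16w db/db, with a median of -2.39 against -0.08 for all genes and a median length of 3851.5 bases. A UMI of Pi16 was seen in 5.26% of thinned 16w db/db stromal cells (58 of 1102) and 14.7% of those of HFD (268 of 1824), against 65.3% in WT.

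Genes of committed preadipocytes were close in both libraries. Of 14 tested, 1 was over 2-fold higher in HFD and 13 were in neither set, with a median of -0.46. The 1 exception was Icam1, an adhesion molecule, at 35.7 CPM in 16w db/db and 182 CPM in HFD. Fabp4, a fatty acid carrier, and Pparg, the adipogenic regulator, were among the 13, with Pparg at 33.9 CPM and 51.2 CPM.

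Collagen and other matrix genes leaned to 16w db/db at the collagens and to HFD at the small matrix proteins. The 15 collagen genes summed to 30608 CPM in 16w db/db and 21847 CPM in HFD, with 3 higher in 16w db/db, 1 in HFD and a median of 0.37. Col6a1, a chain of the beaded-filament collagen, stood at 3335 CPM and 1551 CPM, Col18a1 of the basement membrane at 489 CPM and 197 CPM, and Col5a1 at 1332 CPM and 660 CPM. Col14a1, a fibril-associated collagen, was the 1 over 2-fold higher in HFD, at 157 CPM and 345 CPM. The median longest transcript of the collagens was 6119 bases, and genes that long leaned to HFD as a class. Col1a1 and Col3a1 were used by the gate and are not counted as a finding. Among 21 matricellular genes 2 were higher in 16w db/db, 6 in HFD and 13 in neither, with a median of -0.74. Postn, the fibrosis-linked protein periostin, stood at 234 CPM in WT, 1987 in 16w db/db and 850 in HFD, and its ratio of 1.22 was 0.97 with a mitochondrial limit of 10%. Tnc, tenascin C, stood at 156 CPM and 53.9 CPM. Fbln1, a fibulin, and the collagen-binding proteoglycans Fmod and Ogn stood at 25.7, 13 and 312 CPM in 16w db/db and at 130, 57.4 and 743 CPM in HFD.

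Igfbp3 (ENSMUSG00000020427, chr11:7206086-7213923), a carrier that holds insulin-like growth factors in the tissue, stood at 643 CPM in WT, 902 in 8w db/db, 729 (705 to 754) in 16w db/db and 30.2 (26.9 to 33.7) in HFD. The HFD library was the one apart, with a log2 ratio of 4.60 (4.43 to 4.76), 24.2-fold. A UMI of it was seen in 38.4% of thinned stromal cells of 16w db/db and in 2.69% of those of HFD, with 29.5% in WT and 0.212% and 0.131% in macrophages of 16w db/db and HFD. In stromal cells with 2 or more UMIs of Pi16, Dpp4 and Sema3c, 69 in 16w db/db and 476 in HFD, Igfbp3 stood at 638 CPM and 28.1 CPM. In those with 0 such UMIs, 1054 and 1059 cells, it stood at 733 CPM and 27.7 CPM. The gap was thus as wide in cells with as in cells without progenitor transcripts. Angptl1, an angiopoietin-like secreted protein, stood at 211 CPM and 41.9 CPM. The growth factors Fgf7 and Fgf10 stood at 12.7 CPM and 16.3 CPM in 16w db/db, against 37.4 CPM and 34.5 CPM in HFD. In this list of 15, 2 were higher in 16w db/db and 2 in HFD, with a median of 0.39.

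Retinoic acid genes were unequal one against another. Cyp26b1, which breaks down retinoic acid, stood at 13.7 CPM in WT, 239 in 16w db/db and 46.8 in HFD. Aldh1a3, a retinaldehyde dehydrogenase that makes retinoic acid, stood at 4.39 CPM and 35.1 CPM, and Dhrs3, which turns retinaldehyde back to retinol, at 49.5 CPM and 163 CPM. Aldh1a1 stood at 117 CPM and 67.9 CPM, a ratio under 2-fold. Only 5 of the 13 genes passed the level minimum, 1 higher in 16w db/db and 2 in HFD, with a median of 0.16.

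Inflammatory and acute-phase genes of stromal cells were split. Has1, a hyaluronan synthase, stood at 7.1 CPM in 16w db/db and 90.2 CPM in HFD, Il6 at 5.22 CPM and 41.7 CPM, and Cxcl1 at 69.2 CPM and 385 CPM. The pentraxin Ptx3 stood at 13 CPM and 65.1 CPM. Ccl11, the eosinophil chemokine eotaxin, was on the other side at 977 CPM and 398 CPM. Of 15 genes 4 were higher in 16w db/db and 6 in HFD, with a median of -0.88, and these 4 included Ccl7, whose ratio of 1.22 turned to -0.39 among barcodes of 2000 to 6000 UMIs. Matrix proteases and their inhibitors had 0 of 16 genes higher in 16w db/db, 3 in HFD and a median of -0.06, against -0.08 for all genes. Mmp3, the stromelysin, stood at 152 CPM and 689 CPM, and Adamts1 at 75.9 CPM and 316 CPM.

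Transforming growth factor beta genes showed no common direction. The ligand Tgfb1 stood at 61.2 CPM in 16w db/db and 75.8 CPM in HFD, a log2 ratio of -0.31. The feedback genes Smad7 and Skil stood at 26.1 CPM and 32.8 CPM against 71.5 CPM and 106 CPM. Acta2 and Tagln, contractile genes that mural cells also express, stood at 104 CPM and 71.5 CPM in 16w db/db, against 11.1 CPM and 19.5 CPM in HFD. The ratio of Tagln was 1.87 and turned to -0.53 among barcodes of 2000 to 6000 UMIs, and that of Acta2 went from 3.22 to 2.06. Summed over 7 mural markers, stromal cells held 249 CPM in 16w db/db and 202 CPM in HFD. The part of mural cell RNA in these ratios was not tested. Of 16 genes 2 were higher in 16w db/db and 3 in HFD, with a median of -0.19.

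By size of ratio, 82 stromal genes passed for 16w db/db and 86 for HFD. Igfbp3 was joined by C1s2 at 76.7 CPM against 0.660 CPM and C1rb at 50.6 CPM against 0.377 CPM, with 220 CPM and 228 CPM in WT. These complement protease genes have near copies in C1s1 and C1ra, so how reads were split between copies makes their levels uncertain. Spock2, a matrix proteoglycan, stood at 90.1 CPM and 9.05 CPM. On the HFD side the basement membrane chain Col4a4 stood at 4.39 CPM and 98.9 CPM, and Dmkn at 0.418 CPM and 63.2 CPM.

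**Figure D3:**
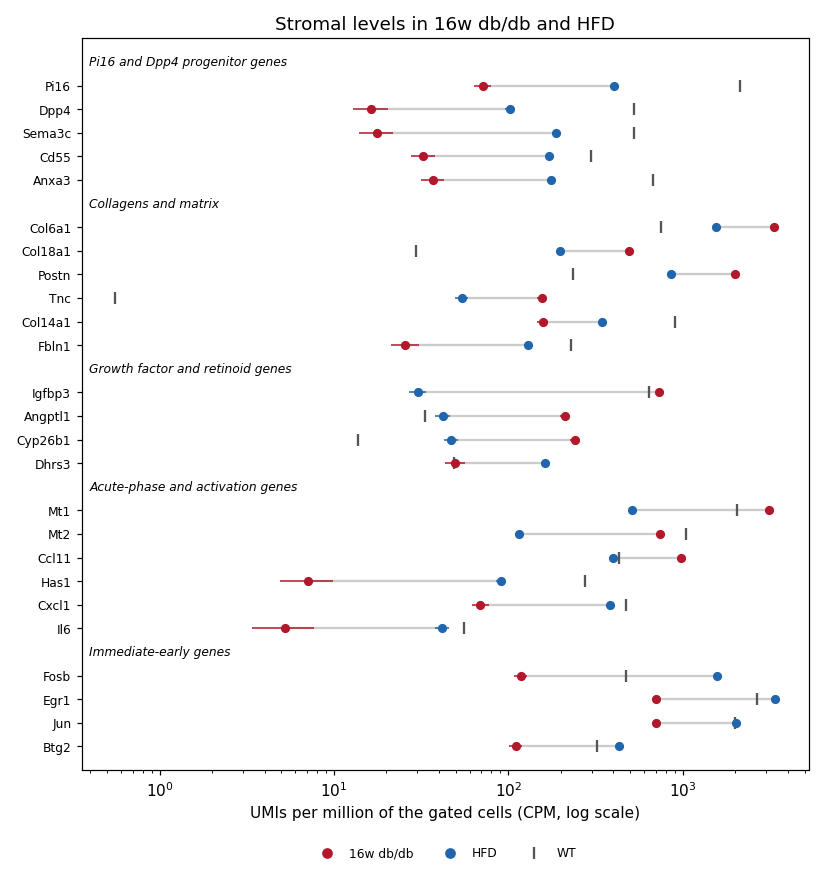
Levels of listed genes in stromal cells (CPM, log axis) for 16w db/db and HFD, with exact Poisson 95% bars, and WT as a tick. Igfbp3 stands at 729 CPM in 16w db/db, near its WT tick of 643 CPM, and at 30.2 CPM in HFD, while Pi16 stands below its WT level in both, at 71.3 CPM and 404 CPM.

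Endothelial cells of both libraries held capillary genes, and the widest gap among capillary genes was at Timp4. Of 6602 genes 491 (7.44%) were over 2-fold higher in 16w db/db and 1297 (19.6%) in HFD, with a median of -0.26, and centred on it the numbers were 795 and 845. The depth of the classes was far apart, with a median of 1065 UMIs per endothelial cell in 16w db/db and 4504.5 in HFD. Timp4 (ENSMUSG00000030317, chr6:115241892-115252205), a metalloprotease inhibitor of fat and heart capillaries, stood at 1256 (1208 to 1305) CPM in 16w db/db and 185 (175 to 195) in HFD. The log2 ratio was 2.76 (2.67 to 2.86). After thinning, a UMI was seen in 68.1% of 16w db/db cells (514 of 755) and 16.9% of HFD cells (240 of 1416). Thinning left out 635 endothelial cells of 16w db/db and 2 of HFD, those with too few UMIs. Without thinning, over all endothelial cells, the shares were 75.6% and 52.0%. The Timp4 ratio was 2.92 without the haemoglobin-rich cells and 2.76 without cells of 3 or more brown adipocyte UMIs. Among barcodes of 2000 to 6000 UMIs it was 2.37. This depth window kept 216 of 1390 endothelial cells in 16w db/db and 995 of 1418 in HFD. Its endothelial values, here and below, therefore do not stand for the whole 16w db/db class. Rgcc, a cell cycle regulator marking capillaries, stood at 1667 CPM and 794 CPM, a ratio of 1.07 that was 0.67 in the same depth window. The fatty acid transport genes were near each other in the libraries: Fabp4 stood at 63218 CPM and 36506 CPM, and the fatty acid translocase Cd36 at 5062 CPM and 5403 CPM. Car4, a capillary carbonic anhydrase, stood at 631 CPM and 330 CPM. Higher in HFD were the transcription factor Meox2 at 74.0 CPM and 215 CPM, the caveolar protein Cavin2 at 490 CPM and 1721 CPM, and the butyrophilin-like Btnl9 at 342 CPM and 942 CPM. Of 17 capillary genes tested 2 were higher in 16w db/db, 3 in HFD and 12 in neither, with a median of 0.19.

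Genes that all endothelial cells share were mostly near each other. Kdr, the main receptor of vascular endothelial growth factor (VEGF), stood at 862 CPM in 16w db/db and 815 CPM in HFD. Ramp2, the partner of the adrenomedullin receptor, stood at 958 CPM and 315 CPM, and the secreted Egfl7 at 965 CPM and 437 CPM. The ratio of Egfl7 was 1.14 over all cells and 0.77 among barcodes of 2000 to 6000 UMIs. Cd93, a lectin-like surface receptor, stood at 244 CPM and 791 CPM, Erg, an endothelial transcription factor, at 63.0 CPM and 177 CPM, and Klf4, a factor induced by flow, at 358 CPM and 1698 CPM. Flt1, the VEGF decoy receptor, stood at 564 CPM and 1153 CPM. Of 18 genes 2 were higher in 16w db/db, 4 in HFD and 12 in neither, with a median of -0.19.

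Arterial and sprouting genes leaned to HFD. Over all endothelial genes the median was -0.26, with 7.44% higher in 16w db/db and 19.6% in HFD, and the venous median lay close to that median. The Notch ligand Dll4 was the exception among arterial genes, at 165 CPM in 16w db/db and 57.0 CPM in HFD, a ratio of 1.53 that was 0.92 among barcodes of 2000 to 6000 UMIs. The elastic fibre protein Fbln5 stood at 21 CPM and 147 CPM, the Notch ligand Jag1 at 21.5 CPM and 56.1 CPM, and the transcription factor Mecom at 78.3 CPM and 167 CPM. Of 9 arterial genes tested 1 was higher in 16w db/db and 4 in HFD, with a median of -0.92. Icam1 and Vcam1, which leukocytes bind on venules, stood at 41.0 CPM and 1.43 CPM in 16w db/db, against 276 CPM and 22.0 CPM in HFD, and of 7 venous genes 0 were higher in 16w db/db and 3 in HFD, with a median of -0.33. Among angiogenic genes the tip cell peptide Apln stood at 2.39 CPM and 28.3 CPM, the co-receptors Nrp1 and Nrp2 at 228 CPM and 69.2 CPM against 704 CPM and 283 CPM, and the basement membrane collagen Col4a1 at 608 CPM and 1538 CPM. Flt4, the VEGF-C receptor, stood at 53.0 CPM and 24.5 CPM, and its ratio of 1.11 was 0.43 in the depth window. Of 16 angiogenic genes 1 was higher in 16w db/db and 8 in HFD, with a median of -0.96 and a median length of 3505.5 bases.

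Genes known from red cells and brown adipocytes were among the widest endothelial ratios. The first 6 of 123 genes that passed for 16w db/db were red cell genes, with Hbb-bs at 59760 CPM and 41.5 CPM and Hba-a1 at 25223 CPM and 11.4 CPM. Without the 158 haemoglobin-rich cells the log2 ratio of Hbb-bs was 4.87 in place of 10.49. On the HFD side, among 403 genes, stood the brown adipocyte genes Ucp1, the heat-producing uncoupling protein, at 1.91 CPM and 159 CPM, Cox8b at 1.91 CPM and 215 CPM, and Fabp3 at 1.43 CPM and 196 CPM, with Fam71a, which is no brown adipocyte marker, at 0.477 CPM and 65.3 CPM. Without the 671 HFD cells of 3 or more brown adipocyte UMIs the ratio of Ucp1 was -4.22 in place of -6.38. Beyond these, Egr3, an immediate-early factor, stood at 6.20 CPM and 290 CPM, Nr1d1, a repressor of the circadian clock, at 292 CPM and 26.6 CPM, and the transporter Slc10a6 at 97.3 CPM and 6.62 CPM.

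**Figure D4:**
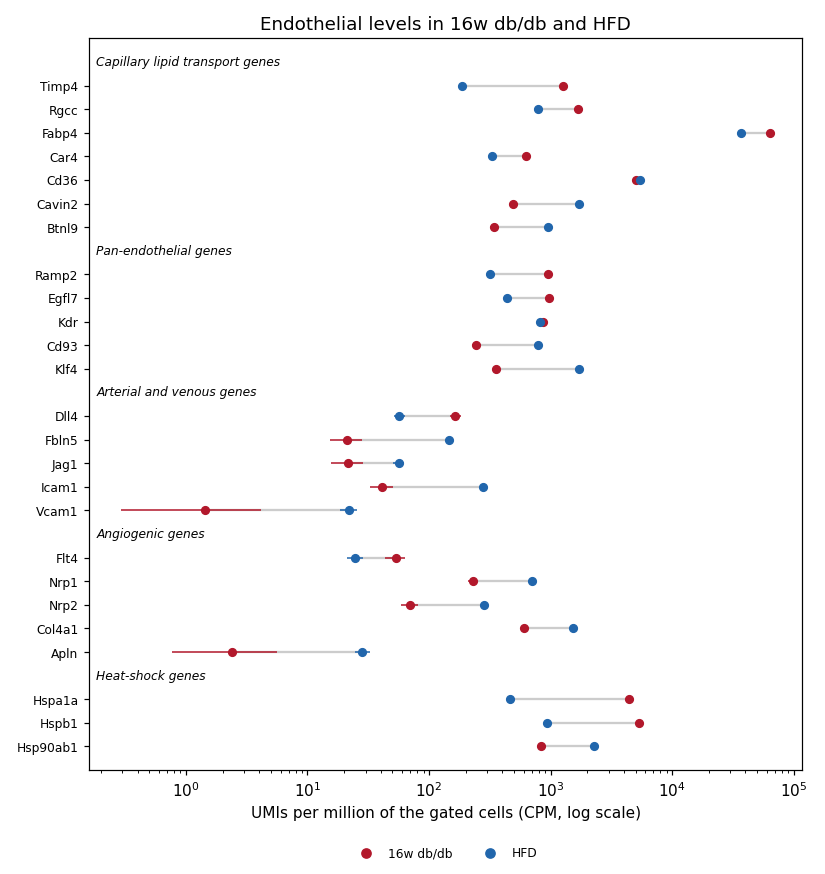
Levels of listed genes in endothelial cells (CPM, log axis) for 16w db/db and HFD, with exact Poisson 95% bars. Timp4 stands at 1256 CPM in 16w db/db and 185 CPM in HFD, Kdr and Cd36 nearly overlie, and Klf4, Icam1 and Apln stand higher in HFD.

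Several gene lists were counted in each of the 3 lineages, since handling, stress and hormone genes can move in all cells of a library. Metallothionein genes, which bind zinc and copper and are induced by metals and glucocorticoids, stood higher in 16w db/db throughout. Mt1 (ENSMUSG00000031765, chr8:94179082-94180327) stood at 2458 CPM in 16w db/db and 528 CPM in HFD in macrophages, 3132 CPM and 512 CPM in stromal cells, and 767 CPM and 87.2 CPM in endothelial cells. The log2 ratios were 2.22, 2.61 and 3.14. Mt2 (ENSMUSG00000031762, chr8:94172664-94173568) stood at 263 CPM and 55.5 CPM in macrophages and at 737 CPM and 115 CPM in stromal cells. In thinned macrophages 75.3% of 16w db/db and 38.4% of HFD cells had a UMI of Mt1.

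The start windows of both are printed because the genes moved together in each lineage and are known to be driven by metal response elements. The windows are of the length given for H2-Aa, from RefSeq (GRCm38.p6), Mt1 at chr8:94178839-94179138 and Mt2 at chr8:94172368-94172667, both on the plus strand. Capitals mark the element's core in both its forms, TGCACNC and TGCGCNC, where N is any base, searched on both strands:
Mt1: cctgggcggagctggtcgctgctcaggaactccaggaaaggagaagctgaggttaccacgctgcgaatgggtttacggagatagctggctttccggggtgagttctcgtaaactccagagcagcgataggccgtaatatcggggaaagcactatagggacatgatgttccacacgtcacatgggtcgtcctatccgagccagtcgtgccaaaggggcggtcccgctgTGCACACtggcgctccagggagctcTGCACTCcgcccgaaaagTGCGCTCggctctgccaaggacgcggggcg
Mt2: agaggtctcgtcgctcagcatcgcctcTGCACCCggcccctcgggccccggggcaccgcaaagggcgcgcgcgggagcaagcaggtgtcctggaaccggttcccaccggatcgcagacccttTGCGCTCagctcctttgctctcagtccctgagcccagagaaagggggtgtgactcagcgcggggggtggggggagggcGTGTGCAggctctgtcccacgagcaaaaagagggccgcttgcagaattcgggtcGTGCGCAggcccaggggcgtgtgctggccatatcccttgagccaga
The Mt1 window held 3 matches, the first 23 bases before the start and the others at bases 3 and 21 of the gene. The Mt2 window held 4, of which those at 223 and 128 bases before the start were on the printed strand and those at 50 bases before it and at base 5 of the gene were on the opposite one. Of the 32851 windows 25.7% held at least 1 match, 7.114% held 2 or more and 0.5175% held 4 or more. These letters do not show whether the factor was bound.

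Heat-shock genes did not move together. The chaperone Hspa1b stood higher in 16w db/db than in HFD, at 629 CPM and 28.8 CPM in macrophages, 1052 CPM and 58.7 CPM in stromal cells, and 3936 CPM and 276 CPM in endothelial cells. Hsp90aa1 and Hsp90ab1 stood the other way in endothelial cells, at 341 CPM and 832 CPM against 1306 CPM and 2281 CPM. Of 12 genes the numbers higher in 16w db/db and in HFD were 2 and 0 in macrophages, 4 and 1 in stromal cells and 3 and 3 in endothelial cells, with medians of -0.41, 0.14 and -0.00. In macrophages and stromal cells the summed list lay below WT in both libraries. Macrophages of 16w db/db, HFD and WT held 4583, 4626 and 25833 CPM, and stromal cells 5947, 4367 and 13184 CPM. Glucocorticoid-induced genes were also mixed, with 3 and 3 of 12 in macrophages, 5 and 0 of 16 in stromal cells and 5 and 4 of 15 in endothelial cells, at medians of -0.45, 0.24 and 0.09. Fkbp5, a steroid receptor chaperone, stood at 45.9 CPM and 10.1 CPM in macrophages and 103 CPM and 18.3 CPM in endothelial cells. Per1, a clock gene that glucocorticoids induce, stood at 108 CPM and 31.0 CPM in stromal cells and 245 CPM and 59.9 CPM in endothelial cells.

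Immediate-early genes, which tissue dissociation can induce, stood higher in HFD than in 16w db/db. Fosb stood at 81.6 CPM and 643 CPM in macrophages, 118 CPM and 1559 CPM in stromal cells, and 119 CPM and 1101 CPM in endothelial cells. In macrophages and stromal cells the summed list lay below WT in both libraries. Macrophages of 16w db/db, HFD and WT held 3923, 7293 and 27076 CPM, and stromal cells 4780, 13196 and 15405 CPM. Fosb alone stood at 474 CPM in WT stromal cells, between 16w db/db and HFD. Of 13 genes 0, 0 and 1 were higher in 16w db/db and 4, 10 and 4 in HFD in macrophages, stromal and endothelial cells, with medians of -0.91, -1.52 and -0.73 and a median length of 2553 bases. How long each preparation took is not given in the sources used here, and the part of dissociation in these values was not tested. Interferon-induced genes leaned the same way, with 0 higher in 16w db/db in any lineage and 5 of 7, 10 of 12 and 8 of 15 higher in HFD, at medians of -1.93, -1.91 and -1.24 and a median length of 2656 bases. In macrophages the ubiquitin-like Isg15 stood at 241 CPM in WT, 191 in 8w db/db, 4.38 in 16w db/db and 25.3 in HFD, so 16w db/db and HFD were both below WT and 8w db/db.

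Most unfolded protein response genes passed 2-fold in neither direction. None was higher in 16w db/db, and 3 of 12, 4 of 12 and 2 of 11 were higher in HFD in macrophages, stromal and endothelial cells, near the 20% and 19.6% of all genes in the first and last and above the 13.5% in stromal cells, at medians of -0.54, -0.61 and -0.64. Hspa5, the main chaperone of the endoplasmic reticulum, stood at 371 CPM and 952 CPM in macrophages, 413 CPM and 1137 CPM in stromal cells and 276 CPM and 947 CPM in endothelial cells. Nuclear genes of oxidative phosphorylation leaned to 16w db/db in macrophages and stromal cells, with 6 and 3 of 18 higher there and 0 in HFD, at medians of 0.59 and 0.39, and were even in endothelial cells at 1 and 1 and a median of -0.14. The list's median length was 1906 bases, and the shortest genes as a class leaned the same way, with medians of 0.35 in macrophages and 0.26 in stromal cells and with 18.2% and 12.3% higher in 16w db/db. Ndufa1, a subunit of respiratory complex I, stood at 349 CPM and 88.8 CPM in macrophages, 281 CPM and 73.4 CPM in stromal cells and 223 CPM and 88.2 CPM in endothelial cells. Ribosomal protein genes made up 22.1% and 11.5% of macrophage UMIs, 18.8% and 9.38% of stromal UMIs and 13.3% and 7.70% of endothelial UMIs, and mitochondrial genes 0.834% and 9.05%, 0.758% and 9.20% and 1.83% and 10.6%. Of 12 glycolysis genes 10 passed 2-fold in neither direction in macrophages, with 1 higher on each side and a median of 0.71. The medians in stromal and endothelial cells were 0.20 and -0.09, with 0 higher in 16w db/db and 1 in HFD in each. Hk2, a hexokinase, stood at 110 CPM and 18.3 CPM in macrophages, and Gapdh at 984 CPM and 531 CPM.

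**Figure D5:**
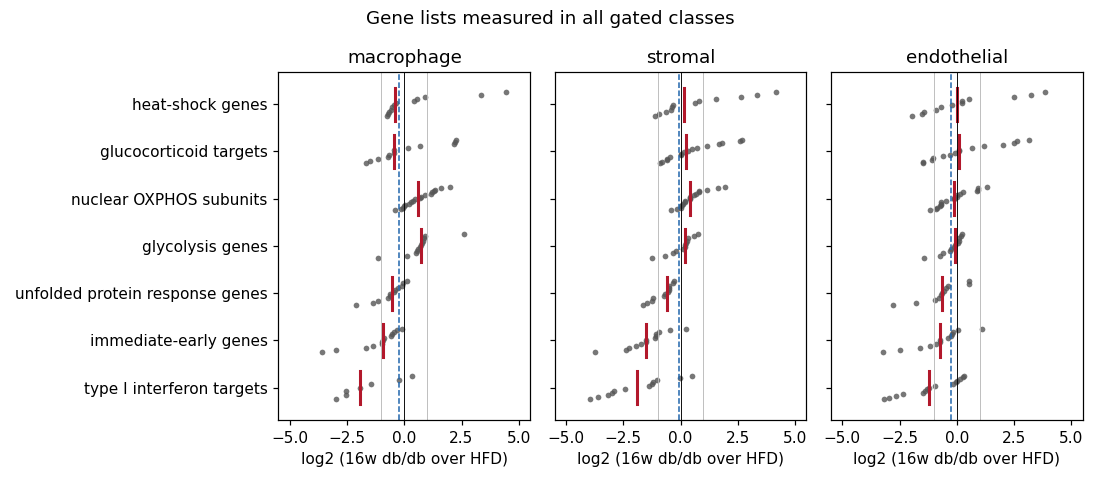
Log2 ratio of 16w db/db over HFD (x axis) for the lists (y axis) counted in each lineage. Grey dots are genes tested and the red bar is the list median. The blue dashed line is the median of all genes tested in that lineage, and the thin grey lines mark 2-fold. Interferon and immediate-early medians lie to the left of the blue line in the 3 lineages, from -1.93 to -0.73. Oxidative phosphorylation medians lie between -0.14 and 0.59.

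The cells outside the lineages differed in leukocyte marker RNA. Ungated cells made up 19.0% of 16w db/db (1107 cells) and 7.54% of HFD (412 cells), and mixed cells 2.88% (168) and 5.2% (284). Ungated cells had medians of 2456 UMIs in 16w db/db and 3976 in HFD, and the shares below were not thinned. Of them 40.0% and 51.9% had 3 or more UMIs of macrophage markers, and red cell markers summed to 12429 CPM and 15.6 CPM. Summed over 5 monocyte markers, such as Ly6c2 and Ccr2, ungated cells held 176 CPM in 16w db/db and 1064 CPM in HFD, and 8.76% and 44.7% of them had 3 or more monocyte UMIs. Dendritic cell markers, among them Flt3 and Clec9a, summed to 24.7 CPM and 366 CPM, and 1.26% and 20.4% of ungated cells had 3 or more such UMIs. Neutrophil markers such as S100a8 went the other way, at 527 CPM and 17.9 CPM, in 2.62% and 0.243% of cells. T cell markers summed to 57.3 CPM and 141 CPM, and natural killer cell markers to 127 CPM and 148 CPM. Dendritic cell markers in the macrophage class itself summed to 2.47 CPM in 16w db/db and 12.6 CPM in HFD, beside the class II values given above.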

How the data were processed

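Single cells of the brown adipose SVF were captured with 10x Genomics 3′ chemistry in 4 libraries, each of 1 group and of the pooled tissue of 3 mice. The authors deposited raw UMI counts, a whole number for every gene in every barcode that Cell Ranger had called as a cell, and the authors aligned the reads to mm10. The labels and methods give Cell Ranger 7.1.0, and the file headers name 6.0.0. RNA from unspliced and spliced transcripts cannot be separated in these counts, and whether introns were counted is not given in the sources used here.

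Barcodes were filtered and gated by the limits stated with the results, and raw UMIs were summed per lineage and library and divided by all UMIs of those cells to give CPM. No doublet caller was run: barcodes that met no single gate were kept apart as mixed, and doublets within a lineage stayed in. Intervals were exact Poisson for levels, exact conditional binomial for ratios and Clopper-Pearson for shares, at 95%, with differences of shares built from both intervals. They cover counting error only. A count of 0 was set to 3 counts, so that such a ratio is a bound. Total kept UMIs were 26558173 in 16w db/db and 32606428 in HFD. Depth was 1065 to 5697.5 median UMIs per cell over the gated lineages of 16w db/db and 4504.5 to 5897 over those of HFD, so endothelial values of 16w db/db are the least precise.

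Samples were grouped by their titles. Genes were named where they belonged to the lists written for each lineage, or were among the 10 per direction with the widest ratio, at 50 CPM or more in the higher library, at least as high there as in the other lineages and past 2-fold under each gate and mitochondrial limit. Gate, mitochondrial, ribosomal protein, sex-linked marker and unnamed model genes were left out of that rule, and 1 gene that it named is not reported here. The comparison, its members and the lists were chosen with earlier results of these data known. The alternatives were other gates, mitochondrial limits, scalings and level minimums, with others added after the data were seen. Gene positions came from GENCODE M21 (GRCm38), where 32158 of 32285 gene IDs were found, and start windows from RefSeq. The computation was checked on simulated counts. It used Python 3.11.15, numpy 2.4.6, scipy 1.17.1, pandas 2.3.3 and matplotlib 3.10.9.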

Additional observations from a re-analysis of the deposited data

How the results depend on the processing

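No paired analysis was possible because each group had 1 library. The macrophage share difference of 5.60 points became 3.58 with a gate of 6 UMIs, 14.8 with no mitochondrial limit, 10.9 among gated lineages only and 1.73 without brown adipocyte UMIs. The stromal difference of -12.6 became -10.5 with a gate of 5 times the other sums, -20.6 with a mitochondrial limit of 10%, -1.11 with none, -8.99 with cells thinned to 1000 UMIs before gating and -16.8 without brown adipocyte UMIs. The endothelial difference of -2.13 became -4.97 with a gate of 6 UMIs, -4.66 when thinned and -3.90 without haemoglobin-rich barcodes, and it changed sign to 2.97 with a gate of 5 times the other sums, 4.92 with a limit of 10%, 0.953 with none, 6.59 without brown adipocyte UMIs and 0.743 among gated lineages only.

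Numbers of genes past 2-fold moved most with the level minimum. With no minimum they were 2639 and 5409 in macrophages, 4071 and 3401 in stromal cells and 4578 and 3405 in endothelial cells, for 16w db/db and HFD in turn. With 10 CPM added they were 764 for HFD in macrophages, 270 and 540 in stromal cells and 320 and 814 in endothelial cells. At 50 CPM or more they were 671, 433 and 713 for HFD, and 303 for 16w db/db in endothelial cells. Centring gave 817 for 16w db/db in macrophages, and 795 and 845 in endothelial cells. Barcodes of 2000 to 6000 UMIs gave 322 for 16w db/db and 1944 for HFD in endothelial cells, in place of 491 and 1297. Without haemoglobin-rich barcodes the endothelial numbers were 687 and 943.

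The LAM gene sum of -0.113 was -0.131 with a gate of 6 UMIs, -0.135 with one of 5 times, -0.269 with a limit of 10%, -0.238 over non-mitochondrial UMIs, -0.104 without haemoglobin-rich barcodes, -0.0924 without brown adipocyte UMIs and -0.131 at 2000 to 6000 UMIs. It changed sign to 0.0411 with no mitochondrial limit, 0.105 when centred and 0.181 without Fabp4, Cd36 and Lpl. The cycling difference of 14.9 points was 18.5 with no mitochondrial limit, 9.18 at 4 UMIs or more, -1.10 without thinning and 12.4 without thinning at 4 UMIs or more. The cause was not tested for any of these. Of 2601 recomputed ratios of 289 genes by lineage, 2493 stayed past 2-fold, 108 did not and 2 changed sign, both stromal at 2000 to 6000 UMIs: Ccl7 at -0.39 and Tagln at -0.53. Of 225 recomputed list medians 23 moved by 0.25 or more. The settings on haemoglobin, brown adipocyte UMIs, depth, gated lineages only and 4 UMIs without thinning were chosen after the data were seen. Leaving out a library was not possible.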
